A study of Mus musculus with 4 samples.

Results

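A set of 10 genes that mark lipid-associated macrophages, Trem2, Tyrobp, Gpnmb, Cd9, Cd63, Cd68, Spp1, Fabp5, Lgals3 and Itgax, was examined in whole-liver RNA-seq. They were taken by gene symbol, and all 10 had a single entry each among the 24138 rows of the expression table. Each of the 4 libraries was made from the liver of a male mouse of strain C57BL/6J at 18 weeks of age, fed the FAT-MASH diet, which is used to model metabolic dysfunction-associated steatohepatitis (MASH), and treated with RvD1 (resolvin D1), a pro-resolving lipid mediator. Diet and RvD1 were shared by all 4 animals, named livers 1 to 4 here, and no untreated, diet-only or vehicle group was analysed. The values therefore give the level of these transcripts in treated, diet-fed livers and the spread between animals, and no effect of diet or RvD1 can be read from them.

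Lipid-associated macrophages are found around dying, lipid-laden cells in fatty liver, adipose tissue and other lipid-rich tissues. The receptor TREM2 binds lipids, lipoproteins and apoptotic debris, and signals through the adaptor TYROBP (DAP12), whose cytoplasmic motif recruits the kinase SYK. Macrophages in this state take up and degrade lipid, and carry lysosomal proteins, tetraspanins, fatty acid-binding proteins, galectin 3 and osteopontin. Several of these genes are also transcribed in other liver cells: Spp1 in bile duct epithelium, Cd9 and Cd63 in most cell types, and Itgax in dendritic cells. In whole-liver RNA, fewer macrophages and less transcript per macrophage cannot be told apart.

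The sequence just upstream of the annotated start was available for 8 of the 10 genes in the RefSeq promoter set (GRCm38.p6), and Tyrobp and Fabp5 were not included. These windows were searched for motifs of factors active in macrophages. The 250 bases before the start of Cd68 and Itgax held the AP-1 motif TGAGTCA, and those before the first of the 2 starts of Spp1 held GAGGAAGT, a form of the PU.1 motif. The Trem2 window, shown for comparison, held none of the motifs searched. Capitals mark the AP-1 and PU.1 matches.
Trem2: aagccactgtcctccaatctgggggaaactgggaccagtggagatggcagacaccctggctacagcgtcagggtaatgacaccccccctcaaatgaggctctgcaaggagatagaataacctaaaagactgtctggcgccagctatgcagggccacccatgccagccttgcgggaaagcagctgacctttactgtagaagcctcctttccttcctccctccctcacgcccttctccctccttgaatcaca
Cd68: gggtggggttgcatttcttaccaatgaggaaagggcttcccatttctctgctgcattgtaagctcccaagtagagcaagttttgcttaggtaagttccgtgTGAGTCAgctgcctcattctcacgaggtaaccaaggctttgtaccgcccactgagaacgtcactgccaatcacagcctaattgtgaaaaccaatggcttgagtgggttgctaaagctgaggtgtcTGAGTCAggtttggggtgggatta
Itgax: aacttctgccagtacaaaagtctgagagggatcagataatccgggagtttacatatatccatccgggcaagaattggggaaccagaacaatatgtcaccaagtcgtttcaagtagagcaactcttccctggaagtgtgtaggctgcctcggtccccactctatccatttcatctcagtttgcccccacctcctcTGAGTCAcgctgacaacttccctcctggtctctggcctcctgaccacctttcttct
Spp1: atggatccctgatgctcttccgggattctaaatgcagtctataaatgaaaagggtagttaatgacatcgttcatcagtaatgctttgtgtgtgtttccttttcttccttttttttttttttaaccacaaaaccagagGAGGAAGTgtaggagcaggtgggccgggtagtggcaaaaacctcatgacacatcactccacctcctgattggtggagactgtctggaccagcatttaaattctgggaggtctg

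These windows lie at chr17:48346151-48346400 (plus strand) for Trem2, chr11:69666171-69666420 (minus strand) for Cd68, chr7:128129300-128129549 (plus strand) for Itgax and chr5:104434861-104435110 (plus strand) for Spp1. Each is written 5′ to 3′ on the strand of its gene. TGAGTCA began 149 and 24 bases before the start of Cd68 and 56 bases before that of Itgax, counted from the base after each window. For Itgax, RefSeq's gene begins at 128129526, inside this window, and the deposited entry at 128129568, so the distance holds for the start used by the promoter set only. On either strand it was found in 4.46% of all 32851 windows of this length. GAGGAAGT began 113 bases before the first start of Spp1. A second RefSeq start of Spp1, with its window at chr5:104435942-104436191, held none of the motifs searched. GAGGAAGT was found in 2.44% of windows. The E-box CACGTG, which the lysosomal regulators TFEB and TFE3 bind, and TCATGTG, a form bound by MITF, were found in 6.02% and 3.25% of windows and in 0 of the 8 genes. TATAAA was also searched, and was found 211 bases before the first start of Spp1 (left in lower case) and in 12.4% of windows. The motifs were chosen after the sequences had been seen, and a match does not show binding.

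Library size could be estimated only roughly. The estimated depth was between 18.8 and 20.1 M fragments. It came from values kept within a fixed window, which holds the estimates close together, so likeness in size was not tested. Between 10392 and 10582 genes reached 1 FPKM (fragments per kilobase of transcript, scaled to library size). A gene was counted as expressed when its mean reached 1 FPKM, which 10541 genes did, the 10 members among them. Approximately 98 to 153 fragments lay behind the values of Itgax and 136 to 174 behind those of Trem2, the 2 genes with the fewest, against 4046 to 5203 behind Spp1. From these numbers, which rest on the estimated depth, counting alone would give a coefficient of variation of up to about 10.1% for Itgax. It would be 8.59% for Trem2 and 1.57% for Spp1.

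Spp1 was the most abundant of the 10 transcripts and Itgax the least. The mean level was 191 FPKM for Spp1, 69.3 for Cd63, 45.6 for Tyrobp, 39.5 for Fabp5, 30.9 for Cd9, 26.7 for Cd68, 19.5 for Lgals3, 19.1 for Gpnmb, 9.47 for Trem2 and 1.63 for Itgax. Of the 9 pairs of neighbours in this order, 3 had ranges over the 4 livers that did not overlap: Spp1 above Cd63, Gpnmb above Trem2 and Trem2 above Itgax. Cd63 to Gpnmb formed a run in which each gene overlapped the next. Cd63 nevertheless exceeded Tyrobp within each of the 4 livers, Fabp5 exceeded Cd9 in 4 and Cd68 exceeded Lgals3 in 4, whereas Lgals3 exceeded Gpnmb in only 2. Among all expressed genes Spp1 ranked 452, Cd63 1082 and Trem2 4690. The 10 genes together accounted for 0.0914%, 0.0955%, 0.0696% and 0.0828% of the FPKM total, livers 1 to 4 in order. Spp1 alone held 36.6% to 47.6% of their sum.

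**Figure D1:**
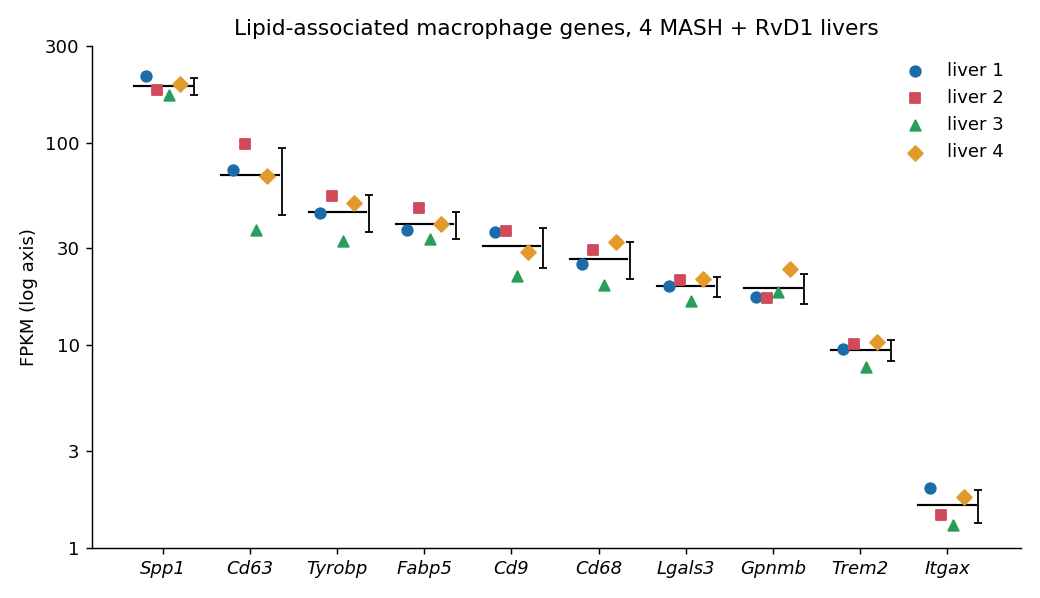
FPKM (log axis) of the 10 lipid-associated macrophage genes in each of the 4 MASH + RvD1 livers, ordered by mean. Horizontal lines are means and the bars beside them are ± SD (n = 4); the triangle of liver 3 is the lowest point for each gene except Gpnmb.

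The receptor Trem2 (chr17:48346401-48352276, coordinates in mm10) was measured at 9.57, 10.1, 7.81 and 10.4 FPKM in livers 1 to 4. Livers 1, 2 and 4 lay close together and liver 3 was lower, and the mean ± SD was 9.47 ± 1.16 FPKM (n = 4) over a 1.33-fold range. Its signalling adaptor Tyrobp (chr7:30413788-30417579) was measured at 45.1, 54.3, 32.5 and 50.5 FPKM, with liver 3 again lowest, and its mean was 45.6 ± 9.50 FPKM (SD, n = 4). Tyrobp serves many other activating receptors of myeloid and natural killer cells. Its level per length was 4.72, 5.37, 4.16 and 4.85 times that of Trem2 in livers 1 to 4. The related adaptor gene Hcst, which lies next to Tyrobp and encodes DAP10, was at 0.0306 ± 0.0199 of the Tyrobp level per length (SD, n = 4), highest at 0.0602 in liver 3.

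The tetraspanins are membrane proteins that organise receptors and integrins. Cd63, a tetraspanin of late endosomes, lysosomes and exosomes (chr10:128908919-128912818), was measured at 73.3, 98.3, 36.9 and 68.6 FPKM in livers 1 to 4. Liver 2 was highest and liver 3 lowest, a 2.67-fold range, and the mean was 69.3 ± 25.2 FPKM (SD, n = 4). Its SD of log2(FPKM + 1), 0.58, exceeded that of 99.1% of expressed genes and was the largest among the 10. Cd9, a tetraspanin of the cell surface (chr6:125460266-125494755), was measured at 36.03, 36.8, 22.0 and 28.7 FPKM. Livers 1 and 2 were high, liver 4 was intermediate and liver 3 was low, and the mean was 30.9 ± 6.97 FPKM (SD, n = 4).

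Both tetraspanin genes have processed copies elsewhere in the genome, which limits how exactly their reads can be assigned. The transcript of Cd63-ps is 98.5% identical to that of Cd63 over 812 bases, and Cd9-ps is 91.1% identical to Cd9 over 665 bases. Neither copy was analysed here. Gm28809 is annotated on the opposite strand over 3316 bases of the Cd9 span, and use of strand in the counting is not given in the sources used here.

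Gpnmb, a glycoprotein of lysosomes and of the macrophage surface (chr6:49036518-49058182), was measured at 17.2, 17.2, 18.3 and 23.9 FPKM in livers 1 to 4. It was the exception among the 10 genes: liver 4 was high, the other 3 animals lay between 17.2 and 18.3 FPKM, and liver 2 was lowest. Its mean was 19.1 ± 3.19 FPKM (SD, n = 4), and its ratio to Trem2 was 1.80, 1.70, 2.34 and 2.29 in livers 1 to 4. Cd68, a heavily glycosylated lysosomal protein used as a general macrophage marker (chr11:69664213-69666170), was measured at 25.2, 29.6, 19.8 and 32.3 FPKM. Liver 4 was again highest but liver 3 was lowest, and the mean was 26.7 ± 5.48 FPKM (SD, n = 4).

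Spp1 encodes osteopontin, a secreted ligand of integrins and CD44 (chr5:104435111-104441053). It was measured at 214, 182, 171 and 195 FPKM in livers 1 to 4. The values spanned a range of 1.25-fold, and Spp1 had the smallest SD of log2(FPKM + 1) of the 10 genes (0.14). Liver 1 was highest. Markers of bile duct epithelium, where Spp1 is also transcribed, had a median deviation of 0.13 in liver 3, where Spp1 deviated by -0.15. They were divided there, with the keratin gene Krt19 at -0.08, Epcam at -0.04 and Cldn7 at -0.12, but Cdh1 at 0.29 and Spint2 at 0.19. The ratio of Spp1 to each of the 10 expressed markers was lowest in liver 3 for 7 of them and in liver 2 for 3, and its range over the livers ran from 1.16-fold (Krt19) to 2.49-fold (Cldn7), with a median of 1.66-fold. How much of the Spp1 signal came from bile duct cells was not tested. The unclassified model Gm42793 is annotated over 1252 bases of the Spp1 span on the same strand.

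Fabp5, a fatty acid-binding protein of macrophages and epithelia (chr3:10012585-10016610), was measured at 37.2, 47.6, 33.4 and 39.7 FPKM, highest in liver 2 and lowest in liver 3. Its mean was 39.5 ± 6.03 FPKM (SD, n = 4). Fabp4, the related protein of adipocytes and macrophages, was measured at 11.1, 37.5, 11.6 and 18.2 FPKM and was also highest in liver 2, so that the Fabp5 to Fabp4 ratio ranged from 1.27 in liver 2 to 3.35 in liver 1. Fabp1, the hepatocyte form, was 206 to 310 times the level of Fabp5. Fabp5 has 5 processed copies whose transcripts are 93.6% to 98.3% identical to it over 336 to 409 bases, and reads shared with them could move its value.

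Lgals3 encodes galectin 3, a carbohydrate-binding lectin that gathers at damaged lysosomes (chr14:47373860-47386167). It was measured at 19.5, 20.97, 16.4 and 21.3 FPKM in livers 1 to 4, lowest in liver 3, and averaged 19.5 ± 2.21 FPKM (SD, n = 4). It was not the most abundant galectin transcript: Lgals9, the gene of galectin 9, was 14.2 ± 3.07 times higher and Lgals1 3.93 ± 0.675 times higher per length (each SD, n = 4).

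Itgax encodes the integrin chain CD11c, which pairs with the shared chain encoded by Itgb2 (chr7:128129568-128150657). It was measured at 1.98, 1.46, 1.30 and 1.77 FPKM in livers 1 to 4, and livers 1 and 4 lay above livers 2 and 3. The ratio of Itgax to Itgam, the gene of CD11b, was 1.69, 1.31, 1.35 and 2.40 in livers 1 to 4. Itgam averaged 0.995 FPKM, just below the cut of 1 FPKM for an expressed gene, and was at 0.737 FPKM in liver 4. Itgb2 was 2.96 ± 0.666 times the level of Itgax (SD, n = 4). Of 12 dendritic cell markers, 2 were expressed, Irf8 at 3.91 ± 0.376 FPKM and Zbtb46 at 1.07 ± 0.386 FPKM (each SD, n = 4). The 12 markers summed to 9.96, 10.1, 10.9 and 9.12 FPKM in livers 1 to 4, with none of them at 0 in all animals, and their part in the Itgax level was not tested. Itgad, which is 94.99% identical to Itgax over 758 bases, was at or below 0.0588 FPKM in each liver.

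Liver 3 held the lowest value of 9 of the 10 genes, all but Gpnmb. The background for this count is 31.4% of all expressed genes with their lowest value in liver 3. Gpnmb was lowest in liver 2, against 29.9% of expressed genes. The 10 genes all lay below their own mean in liver 3, against 53% of expressed genes (47% lay above it), and 0 of the 10 had their highest value there, against 26.8%. The median deviation of the 10 genes from their means, on the log2(FPKM + 1) scale, was 0.02, 0.14, -0.24 and 0.10 in livers 1 to 4. The same median over all expressed genes was -0.01, -0.02, -0.01 and 0.04. In liver 1, 7 of the 10 lay above their mean, against 47.2%, and in liver 2 7 lay above, against 45.1%, and 3 below, against 54.9%. In liver 4, 9 lay above, against 60.8%, and Cd9 alone lay below, against 39.2%. In 6 genes (Trem2, Tyrobp, Cd9, Cd63, Cd68 and Lgals3) liver 3 was lower than each other liver by at least 0.2 on the log2 scale, a step chosen after the values were seen, against 9.55% of expressed genes. No test accompanies these numbers, because the genes form a chosen list in a single group of animals.

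**Figure D2:**
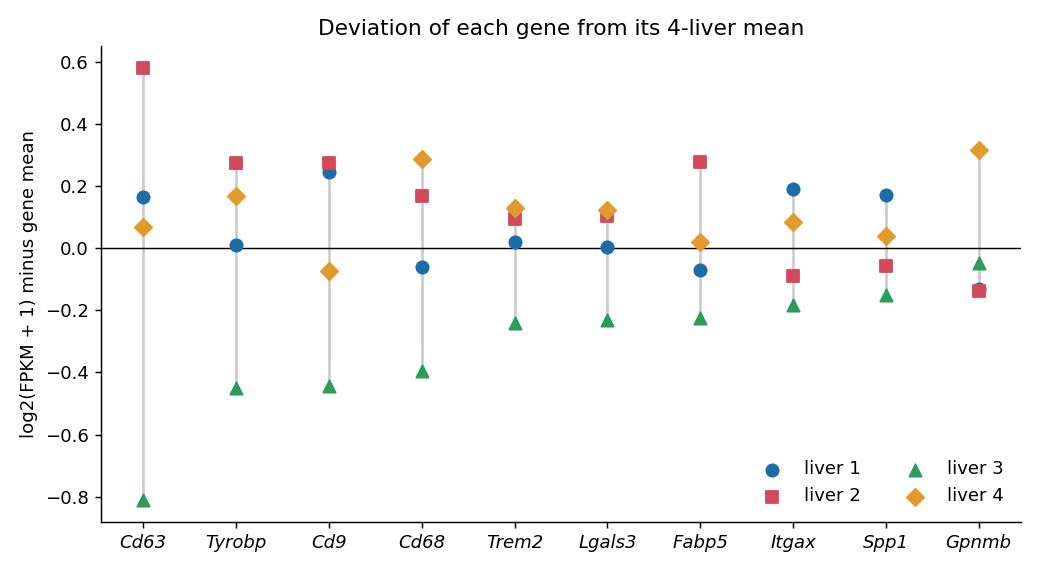
Deviation of each gene from its mean over the 4 livers, on the log2(FPKM + 1) scale, with genes ordered by their deviation in liver 3. Liver 3 (triangles) ranges from -0.81 for Cd63 to -0.05 for Gpnmb, while livers 2 and 4 hold the highest point of 4 genes each and liver 1 that of 2.

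The highest value was less uniform. It fell in liver 2 for Tyrobp, Cd9, Cd63 and Fabp5, against 22% of expressed genes, in liver 4 for Trem2, Gpnmb, Cd68 and Lgals3, against 33.3%, and in liver 1 for Spp1 and Itgax, against 17.9%. The split depended on scaling, since the values of liver 4 sum to more than those of the others: with libraries scaled to equal sums, liver 2 was highest for 7 genes, against 28.4% of expressed genes under that scaling, and liver 4 for 1, against 15.5%. The number lowest in liver 3 was then 9, against 25.3%. The median SD of the 10 genes was 0.21 on the log2 scale, beside 0.16 over all expressed genes, and 6 of the 10 reached an SD of 0.2, against 33.2%. None of the 10 had a single liver apart from the other 3 by the 95% critical value of Dixon's gap ratio, which 5.46% of expressed genes passed. Gpnmb, at 0.80, came nearest.

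Pairs of genes differed in how closely they followed each other over the 4 animals, measured as the root mean square difference of their deviations. Trem2 and Lgals3 were the closest pair (0.012), followed by Spp1 and Itgax (0.033) and by Tyrobp and Cd68 (0.091). In FPKM, Itgax spanned a 1.52-fold range and Spp1 1.25-fold. The added 1 shrinks the deviations of the low Itgax, so the closeness of Spp1 and Itgax depends on the scale. Gpnmb and Cd63 were the farthest apart (0.56). The Trem2 to Lgals3 difference is below what counting alone would give for either gene, so the order among close pairs carries little information. Among 5279 other genes (mean 5 FPKM or more, SD 0.1 or more), those nearest to the average profile of the 10 were Actr2, a subunit of the actin-nucleating Arp2/3 complex, the interferon-induced gene Ifit3, Gmfb, Sypl and Serinc1, with differences from 0.0065 to 0.017. With 4 samples, such nearness is a description only.

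The libraries also differed by base composition, and in more than 1 direction. In the quintile of expressed genes with the lowest GC content (median 42.6%) the median deviation in liver 3 was -0.12, and in the quintile with the highest (median 58.2%) it was 0.11. Between the same quintiles the median fell from 0.07 to -0.08 in liver 2 and from 0.07 to -0.01 in liver 4. Transcript length had a smaller relation in liver 3, from -0.04 for the shortest quintile to 0.01 for the longest. The members spanned 45.2% GC for Spp1 to 57.5% for Trem2. Trem2, Lgals3, Tyrobp and Cd68 lie in the GC-rich range where genes were higher in liver 3, and their deviations there were -0.24, -0.23, -0.45 and -0.39. Spp1, Fabp5 and Cd9 lie in the GC-poor range where genes were lower in liver 3, and theirs were -0.15, -0.22 and -0.44. Gpnmb, Cd63 and Itgax lie between. After the median of genes of like GC content was subtracted in each library, the median deviation of the 10 genes in liver 3 was -0.32. In all, 8 genes were then lowest in liver 3, against 27.3% of expressed genes. Spp1 moved to -0.07 and was no longer lowest there, and Gpnmb was at -0.02. This adjustment was added after the data had been seen.

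**Figure D3:**
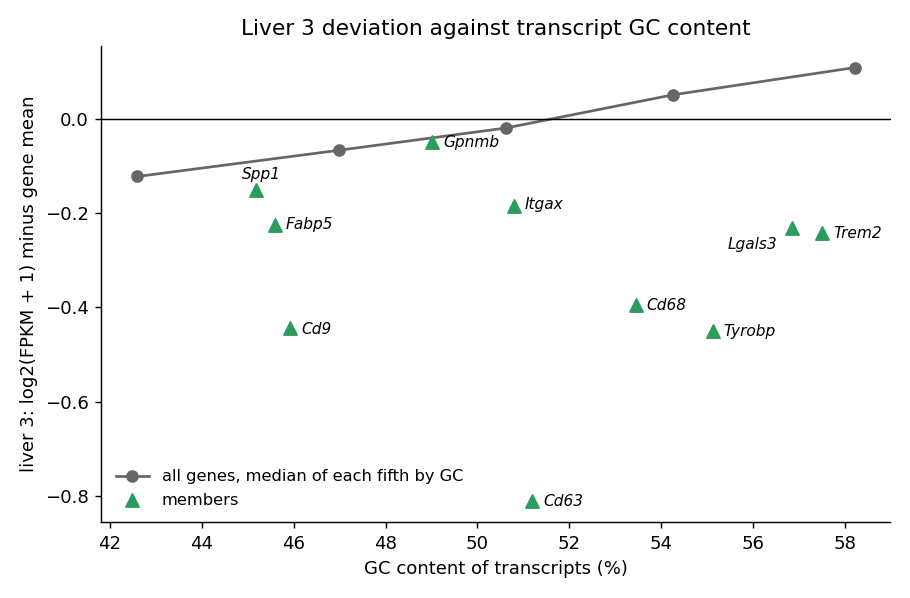
Deviation in liver 3 (log2(FPKM + 1) minus the gene mean) against the GC content of the transcripts. Grey points are the median of each quintile of expressed genes by GC and rise from -0.12 to 0.11; the 10 members (triangles) lie below that line or, for Gpnmb, near it.

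The members were next set against the macrophage content of each library. The reference was the mean log2(FPKM + 1) of 12 pan-macrophage genes, among them Csf1r, Adgre1, Lyz2 and the complement genes C1qa and C1qb, all expressed. The reference itself deviated by -0.15, 0.24, -0.16 and 0.07 in livers 1 to 4, so livers 1 and 3 had the least macrophage transcript and liver 2 the most. Relative to it, the median deviation of the members was 0.17, -0.10, -0.08 and 0.03. These values depended on the reference genes: in liver 3 the median was -0.15 without Aif1, an alternative added after the data had been seen, and -0.18 with Csf1r, Adgre1 and Mpeg1 alone. On this relative scale 7 of the 10 were highest in liver 1, against 41% of expressed genes, and 0 were lowest there, against 2.71%. For the lowest value, 5 were lowest in liver 3, against 6.51%, namely Tyrobp, Cd9, Cd63, Cd68 and Fabp5. The other 5, Trem2, Gpnmb, Spp1, Lgals3 and Itgax, were lowest in liver 2, against 75.1%. Without Aif1 in the reference, 7 were lowest in liver 3, against 11.04%, and 3 in liver 2, against 74.8%. The median SD of the members was 0.23 relative to the reference and 0.21 without it, beside 0.24 and 0.16 over all expressed genes. The SD was smaller relative to the reference for 7 members, against 21.5% of expressed genes, and larger for Gpnmb, Spp1 and Itgax.

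**Figure D4:**
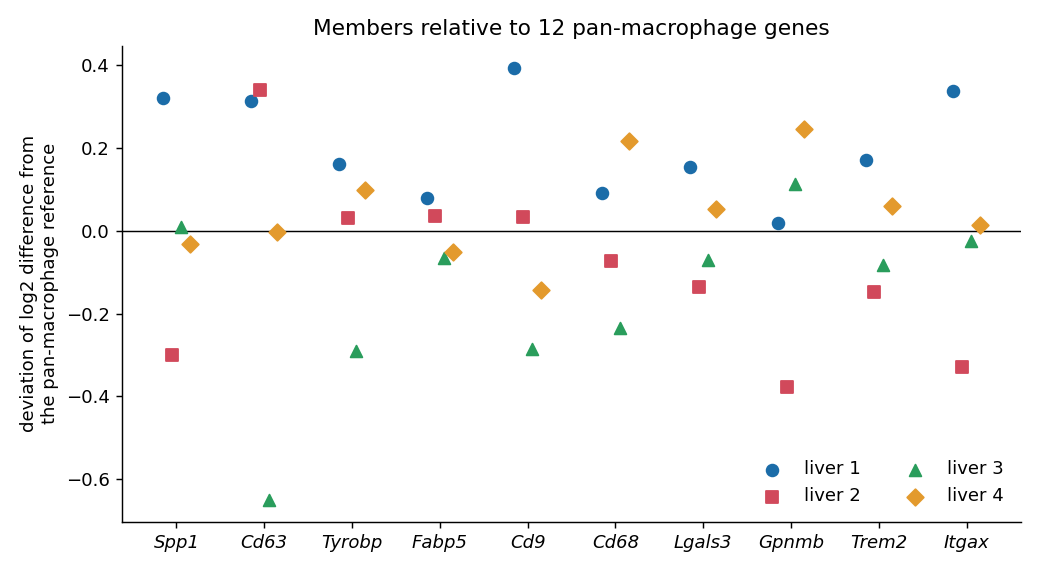
Deviation of the log2 difference between each member and the mean of 12 pan-macrophage genes, in each of the 4 livers, with genes ordered by mean difference. Liver 1 (circles) is highest for 7 of the 10 genes and liver 3 (triangles) is lowest for 5, with Cd63 at -0.65.

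Single reference genes differed from each other in liver 3, where Csf1r deviated by 0.03, C1qa by -0.38 and Aif1 by -0.96. Trem2 relative to Csf1r, the receptor on which macrophages depend, was 0.823, 0.629, 0.558 and 0.776, a 1.47-fold range. Cd68 relative to Csf1r was 2.16, 1.84, 1.41 and 2.41, a 1.71-fold range. Both ratios to Csf1r were lowest in liver 3. Relative to Clec4f, a lectin of resident Kupffer cells that was itself lowest in liver 3 (-0.26), Trem2 was 0.957, 0.909, 0.932 and 0.887, a 1.08-fold range. Cd68 relative to Clec4f was 2.52, 2.66, 2.35 and 2.75, a 1.17-fold range. The low liver 3 value of Trem2 per macrophage transcript thus depended on the gene it was divided by, and both denominators were picked with their values known.

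Other genes reported in lipid-associated or scar-associated macrophages followed a similar course. Of 41 such genes, 37 were expressed. Liver 3 held the lowest value of 22 and the highest of 0, against 31.4% and 26.8% of expressed genes, and their median deviations were -0.04, 0.11, -0.22 and 0.11 in livers 1 to 4. The ferritin genes Ftl1 and Fth1, which store iron, were measured at 4981 ± 726 and 1695 ± 193 FPKM (each SD, n = 4). Both were lowest in liver 3, although hepatocytes make these transcripts as well. Apoc1, an apolipoprotein gene that hepatocytes also transcribe and the most abundant of the list at a mean of 8507 FPKM, was at 8764 FPKM in liver 3, a deviation of 0.04. Apoe, a lipoprotein gene of both hepatocytes and these macrophages, was listed at 0 in all 4 livers, as was Alb, the abundant hepatocyte albumin gene, and a 0 in such a table can be a failed estimate.

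The signalling genes downstream of TREM2 and TYROBP were more even on the log2(FPKM + 1) scale. Many of them were at low levels, where the added 1 lowers the SD, and its part in this evenness was not tested. Of 27, 21 were expressed, with a median SD of 0.14 and median deviations of 0.02, 0.10, -0.07 and -0.02. Without liver 3 the value of liver 1 was -0.02. Of these, 9 were lowest in liver 3, against the 31.4% above. The adaptors Shc1 and Grb2 were at 19.4 ± 2.07 and 12.7 ± 0.401 FPKM, and the phosphatase gene Ptpn6 (SHP-1), which restrains this signalling, at 12.8 ± 1.57 FPKM (each SD, n = 4). Among other TREM-family and TYROBP-coupled receptors, 2 of 16 in the table were expressed, Cd300ld at 2.23 ± 0.399 FPKM and Treml4 at 1.63 ± 0.469 FPKM (each SD, n = 4). Trem2 was therefore the highest transcript of that receptor set.

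A list of MiT/TFE and lipid-sensing transcription factors went the opposite way in liver 3 by its median. Of 15 expressed, 10 had their highest value in liver 3, against 26.8% of expressed genes, and 1 its lowest, against 31.4%. The median deviation there was 0.21. It was 0.13 after the GC adjustment. The MiT/TFE family itself was divided. Tfeb (0.44) and Tfe3 (0.19) were highest in liver 3, whereas Mitf (-0.09) and Tfec (-0.25) were lowest there. Mitf and Tfec had means below 1 FPKM and are not among the 15. Cebpa and Cebpb, which also act in hepatocytes, were at 293 and 213 FPKM in liver 3, against 142 to 181 and 123 to 273 FPKM in the others. The part of GC content in the difference between these regulators and the members was not tested further.

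Markers of other cell types were compared with the members in the same way. Monocyte markers (7 of 12 expressed) had their lowest median deviation in liver 3 (-0.23), but they were divided. Of the 7, 4 were lowest in liver 3, against 31.4% of expressed genes. Ace was highest there (0.30), against 26.8%. Of those 4, Ly6c2, the surface antigen of inflammatory monocytes, was measured at 2.66, 2.56, 1.13 and 2.68 FPKM. Plac8, also of the 4, was at 16.8, 14.3, 10.7 and 12.8 FPKM. Kupffer cell markers (8 of 11 expressed) were lowest in liver 1 (-0.24) and highest in liver 4 (0.27), where Cd5l reached 56.2 FPKM against 29.8 to 46.2 FPKM in the other livers. The Kupffer cell markers were divided in liver 3: Cd5l (-0.42), Clec4f (-0.26) and Vsig4 (-0.26) were lowest there, as most members were, whereas Id3 (0.22) and Nr1h3 (0.20) were highest there. Nr1h3 is also on the list of lipid-sensing factors. The summed levels of the 11 Kupffer cell markers were 174, 206, 198 and 241 FPKM in livers 1 to 4. Pan-macrophage genes summed to 318, 456, 338 and 413 FPKM and monocyte markers to 32.4, 31.4, 21.8 and 26.4 FPKM. Stellate cell (12 of 12) and endothelial (11 of 12) markers were highest in liver 2, at 0.24 and 0.26. Hepatocyte markers (12 of 12) were lowest in liver 2 (-0.22) and at 0.05 in liver 3. Cholangiocyte markers (10 of 12 expressed) summed to 137, 165, 171 and 142 FPKM and were at 0.13 in liver 3, opposite to the members. No marker in these lists was at 0 in all 4 livers, and the part of cell composition in the members' values was not tested.

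**Figure D5:**
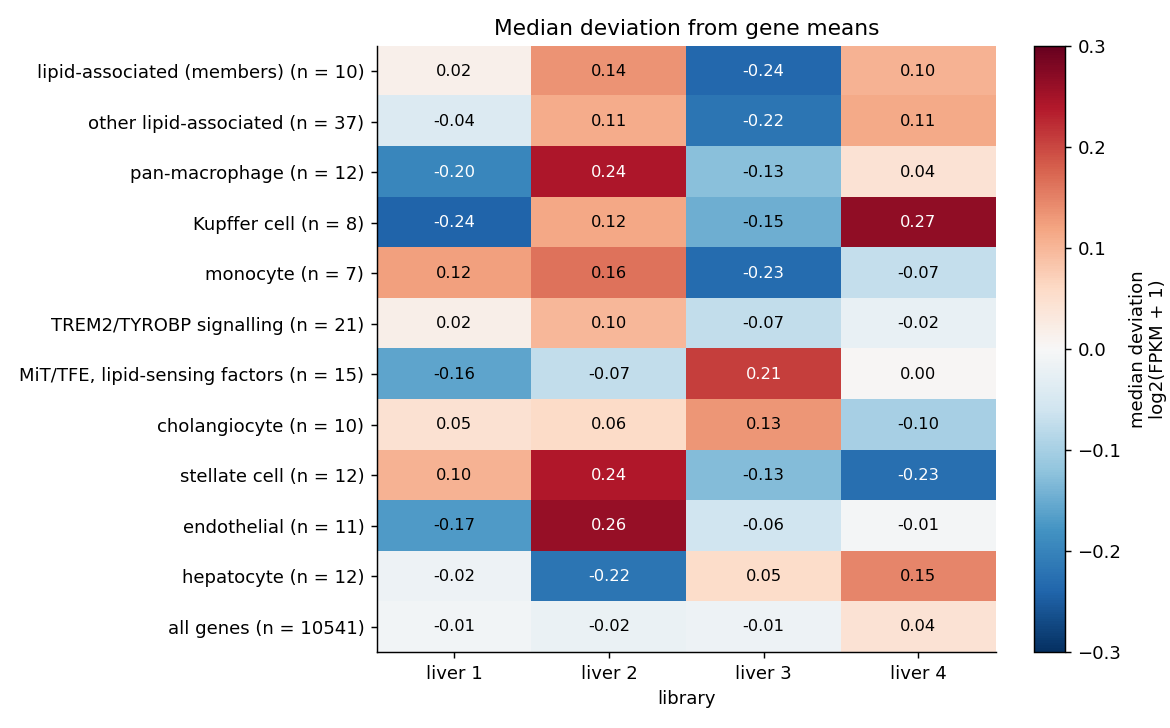
Median deviation from the gene means, on the log2(FPKM + 1) scale, of the 10 members, of other gene lists and of all expressed genes in each liver, with the number of expressed genes in brackets. The members and the other lipid-associated genes are low in liver 3 (-0.24 and -0.22), where the list of MiT/TFE and lipid-sensing factors has a median of 0.21.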

How the data were processed

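Poly(A)-enriched RNA-seq libraries were made from total RNA of 4 livers, per the labels' protocols. The submitters' processing notes name mm10, FastQC 0.10.1, Trim Galore 0.6.3, cutadapt, STAR 2.7.6a and Cufflinks 2.2.1, without stating what each did. The header of the deposited table names no unit, and FPKM was inferred from the range of the authors' values and from the identifiers. The annotation and the use of strand are not given in the sources used here. Columns were matched to livers through sample descriptions, and 0 columns were unmatched.

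Here 1 was added to each deposited start. Deviations and SDs used log2(FPKM + 1), which understates differences of low genes, over genes whose mean reached 1 FPKM. Depth was estimated from the lowest values of single-transcript genes longer than 800 bases in GENCODE M21, as FPKM times length less 200 bases. The median between 25 and 75, a window placed after the values showed a peak there, was taken as 1 fragment. The depth is approximate and does not rank the livers. The window bounds the estimate, so its likeness between livers is partly built in. GC adjustment used 10 bins. Similar transcripts were found with BLAST 2.17.0 (at least 90% identity over 200 bases). Python 3.11.15 and pandas 2.3.3 were used, and the procedures were tested on simulated data.

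The members, the 20 other lists (278 entries, 274 of them in the table, some genes in more than 1 list), the ratios and the motifs were chosen with earlier results of these data known, so no list was tested. The rule for naming genes took the members and, in each list, the 3 with the highest mean and the one with the largest SD, plus the 5 genes nearest to the members' mean profile. Hcst, Csf1r, Adgre1, Mpeg1, Clec4f, Vsig4, Krt19, Epcam, Itgam, Itgb2, Itgad, Apoe and Alb were named outside this rule, after their values were seen. So were Ace, Mitf, Tfeb, Tfe3 and Tfec. The animals are labelled as separate livers, and their spread is that of 1 group. The text names only some of the genes that the rule selects, chosen with their values known. A gene the rule selects is not reported here.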

Additional observations from a re-analysis of the deposited data

Results flagged for a closer look

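Of 76 named genes, 3 had a liver set apart from the other 3 by more than the 95% critical value of Dixon's gap ratio, and none of them was a member. Chance alone marks about 1 in 20 genes. Aif1, a macrophage gene that encodes a calcium-binding protein, stood at 1.96 FPKM in liver 3, below the 5.81 to 6.99 FPKM of livers 1, 2 and 4. Ly6c2 stood at 1.13 FPKM in liver 3, below 2.56 to 2.68 FPKM elsewhere. Apoa1, an apolipoprotein gene of hepatocytes, stood at 15343 FPKM in liver 4, above 11922 to 12320 FPKM elsewhere.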

How the results depend on the processing

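No paired analysis was possible because the 4 livers form a single group. The median deviation of the members in liver 3 was -0.24 and lay between -0.32 and -0.20 over the alternatives that kept all livers, and between -0.24 and -0.21 when another liver was left out. The other livers were less steady: leaving a liver out gave -0.09 (without liver 3) to 0.08 in liver 1, so the sign turned, 0.03 to 0.20 in liver 2 and 0.02 to 0.16 in liver 4. Liver 4 was at 0.03 with equal sums, against 0.10 as deposited, and liver 2 at 0.21 after GC adjustment, against 0.14. Relative to the pan-macrophage genes, liver 3 ranged from -0.18 to -0.07 with all livers and from -0.13 to -0.03 (without liver 1) with a liver left out. Liver 2 ranged from -0.16 (without liver 3) to -0.06 (without liver 1), and was -0.07 without liver 4. Liver 4 ranged from -0.0037 (mean of at least 5 FPKM) to 0.08, and from 0.0037 (without liver 3) to 0.11 (without liver 1).

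The number of members lowest in liver 3 was 8 or 9 in each setting run, against 25.3% to 39.9% of expressed genes (share not computed for the setting with no filter). With a minimum mean of 5 FPKM, Itgax was left out, which alone took the count from 9 to 8. Shares of expressed genes under the same setting follow the other counts in brackets. Scaling to equal sums gave 7 highest in liver 2 (28.4%), 1 highest in liver 4 (15.5%), 1 lowest in liver 1 (17.5%) and 0 lowest in liver 2 (24.2%), and 4 lists rather than 7 with their lowest median in liver 3. Median-ratio scaling gave 2 highest in liver 4 (23.3%), 1 lowest in liver 1 (19.9%) and 0 lowest in liver 2 (26.3%). A minimum mean of 5 FPKM left 1 highest in liver 1 (15.5%), because Itgax was left out. The GC adjustment gave 1 lowest in liver 1 (21.04%) and 2 highest in liver 4 (25.3%).

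When 1 liver was left out, the count lowest in liver 1 ranged from 0 (26.4%, without liver 4) to 5 (34.9%, without liver 3). In liver 2 it ranged from 1 (37.8% without liver 1, 36.8% without liver 4) to 3 (40%, without liver 3), and in liver 4 from 0 (22.8% without liver 1, 26.97% without liver 2) to 2 (25.1%, without liver 3). The count highest in liver 1 ranged from 2 (28.05% without liver 3, 29.8% without liver 4) to 4 (24.99%, without liver 2). In liver 2 it ranged from 4 (27.3% without liver 1, 27.6% without liver 3) to 7 (34.2%, without liver 4), and in liver 3 from 0 (32.7% without liver 1, 31.6% without liver 2) to 1 (35.9%, without liver 4). Between 3 and 6 neighbouring pairs of members had separate ranges, 6 without liver 3. Between 6 and 11 lists had their lowest median in liver 3, 11 without liver 1 or liver 4. Leaving out another liver turned the sign of the median in 8 of 20 lists for liver 1, 4 for liver 2, 2 for liver 3 and 7 for liver 4. Hepatocyte markers in liver 3 then ranged from 0.01 to 0.14, and Kupffer cell markers in liver 1 from -0.28 to -0.11. For TREM2 and TYROBP signalling, liver 1 ranged from -0.02 to 0.02, liver 2 from 0.06 (without liver 4) to 0.09 and liver 4 from -0.06 (without liver 1) to -0.04. Counting error at this depth limits Itgax and Trem2 most.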
